A study of Mus musculus with 3 samples.

Results

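The enzymes that finish a collagen fibril outside the cell were examined in mandibular condyles of WT, Dspp+/- and Dspp-/- mice. The 8 genes were taken by name from the 26970 genes of the authors' table, and all 8 were among the 13026 genes that averaged 1 FPKM or more across the libraries of the 3 genotypes. They are *Lox*, *Loxl1*, *Loxl2*, *Loxl3* and *Loxl4*, which encode the lysyl oxidases, *Bmp1*, which encodes the main procollagen C-proteinase, and *Pcolce* and *Pcolce2*, which encode its enhancers. FPKM counts the fragments of a gene per unit of transcript length and of sequencing depth, so levels of different genes can be compared.

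The study used a global *Dspp* knockout on the C57BL/6 background, and its Dspp+/- mice came from crossing Dspp-/- mice with C57BL/6 WT mice. Condyles were taken at 4 months with cartilage and subchondral bone left together, and RNA sequencing gave 1 library per genotype. According to its methods, tissue of 3 animals was pooled for WT and for Dspp+/-, and no number of animals is given for Dspp-/-. *Dspp* is lost in every tissue of Dspp-/- mice, while Dspp+/- mice keep 1 allele. Mice without *Dspp* are known for dentin defects, so the condyle was not the only site affected in Dspp-/- mice. For Dspp+/- mice the paper reported minor tooth defects, at a later age. The labels speak of triplicate libraries, but the table holds 1 column per genotype. With no replicates the genotypes could not be tested against each other, and each difference below is one between single libraries. Intervals are 95% intervals from the fragments counted (Poisson for a level, Clopper-Pearson for a fold) and cover counting error only, not the spread between mice.

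Fibrillar collagens are secreted as procollagens with a propeptide at each end. BMP1, a zinc proteinase of the tolloid family, removes the C-propeptide, and the PCOLCE proteins bind this propeptide and speed its removal. Lysyl oxidases are copper enzymes that oxidize lysines of collagen and elastin, from which the covalent crosslinks that give bone and cartilage their strength are formed. BMP1 also activates the precursor of LOX and cleaves other matrix proteins, among them the DSPP protein itself.

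The sequences below show what the lysyl oxidases share, the stretch that codes for the histidines that bind copper. In each gene the script found a single pattern of tryptophan, any residue, tryptophan, histidine, any residue, cysteine, histidine, any residue, histidine in the longest open reading frame of the GENCODE M21 transcripts. The 3 histidine codons are in capitals.
Loxl1: tgggagtggCATagctgtCACcaaCAT
Loxl2: tggatttggCACgactgcCACaggCAC
Loxl3: tgggtgtggCATgagtgtCATgggCAT
Loxl4: tggatttggCACcagtgcCACaggCAC
These are coding bases 1426 to 1452 of *Loxl1*, 1864 to 1890 of *Loxl2*, 1804 to 1830 of *Loxl3* and 1819 to 1845 of *Loxl4*, counted from the start codon. Over the last 600 coding bases, *Lox* and *Loxl1* were identical at 72.7% of aligned bases. *Loxl2*, *Loxl3* and *Loxl4* were identical to each other at 70.9% to 73.3%, and pairs across these groups at 64.99% to 68.5%. *Pcolce* and *Pcolce2* were identical at 63.9% of the aligned bases of their coding sequences. None of the 100-base sequences of *Lox*, *Loxl1*, *Loxl4*, *Bmp1* or *Pcolce2* occurred in another gene.

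RefSeq promoters were at hand for 3 of the 8 genes, *Loxl4*, *Pcolce* and *Pcolce2*. Of these genes, *Loxl4* and *Pcolce*, unlike *Pcolce2*, were at least 2-fold lower in both mutant libraries, as given below. Any link of this to the promoters, all 3 of which are shown, was not tested. Each is the 250 bases before the start of transcription, 5′ to 3′ on the gene's strand, in GRCm38.p6, with matches to GGGCGG (the GC box) on either strand in capitals.
Loxl4, chr19:42612807-42613056, minus strand: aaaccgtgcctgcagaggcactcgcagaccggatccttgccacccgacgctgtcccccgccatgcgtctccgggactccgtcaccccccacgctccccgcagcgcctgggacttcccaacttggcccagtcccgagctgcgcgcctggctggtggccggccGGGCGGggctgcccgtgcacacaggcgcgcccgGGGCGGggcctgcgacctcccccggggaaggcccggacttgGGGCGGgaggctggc
Pcolce, chr5:137611405-137611654, minus strand: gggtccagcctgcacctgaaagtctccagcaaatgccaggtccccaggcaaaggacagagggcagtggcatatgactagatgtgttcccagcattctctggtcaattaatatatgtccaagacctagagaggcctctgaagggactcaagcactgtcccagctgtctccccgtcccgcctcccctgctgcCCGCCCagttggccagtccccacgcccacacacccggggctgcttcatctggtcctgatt
Pcolce2, chr9:95637378-95637627, plus strand: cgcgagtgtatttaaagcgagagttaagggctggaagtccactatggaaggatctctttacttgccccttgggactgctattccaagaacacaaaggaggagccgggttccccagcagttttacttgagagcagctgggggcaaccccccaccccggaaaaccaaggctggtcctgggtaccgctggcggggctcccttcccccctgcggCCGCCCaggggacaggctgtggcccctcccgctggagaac
The GC box was found in all 3, with 3 matches in *Loxl4* and 1 each in *Pcolce* and *Pcolce2*, and 32.7% of 32851 promoters in the table hold it in the same window. TATAAA (12.4% of all promoters), CCAAT (33.8%) and TGTGGT (the RUNX core, 14.0%), searched on both strands, had no match in these 3 windows. The motifs do not overlap each other here. The *Loxl4* promoter had a GC content of 76.0%, that of *Pcolce* 58.8% and that of *Pcolce2* 61.2%.

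*Loxl2* shared the most, as 42.8% of its 100-base sequences also occurred in other genes, so its fragments could have been split among them. These genes were *Gm16867*, *Gm21451*, *Gm27177* and *Gm45509*, whose levels were between 0.00715 and 0.303 FPKM in the 3 libraries. *Loxl3* shared 5.76% with *Htra2*, which lies on the opposite strand over 11.6% of the exon length of *Loxl3*. *Htra2* had 4.83 FPKM in the WT library, 5.33 in that of Dspp+/- and 4.13 in that of Dspp-/-, and whether counting used the strand is not given in the sources used here. *Pcolce* shared 0.291% with *Fbxo24* and *Gm36266*, which overlap it. *Bmp1* codes for a short and a long form (mTLD) of the proteinase, which values per gene do not separate.

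The 8 genes lie on 6 chromosomes. *Loxl2* and *Bmp1* are both on chromosome 14 with 778714 bases between them, and *Loxl1* and *Pcolce2* are both on chromosome 9, far from each other. In the positions of the authors' table, *Lox* (ENSMUSG00000024529) is on chromosome 18 from 52649139 to 52662939, *Loxl1* on chromosome 9 from 58195021 to 58220469, and *Loxl2* on chromosome 14 from 69846517 to 69933283. *Loxl3* is on chromosome 6 from 83011154 to 83029543, *Loxl4* on chromosome 19 from 42582421 to 42601252, and *Bmp1* on chromosome 14 from 70711998 to 70757674. *Pcolce* is on chromosome 5 from 137603365 to 137612046 and *Pcolce2* on chromosome 9 from 95519654 to 95580149. All 8 are annotated as protein-coding, and values are per gene over all exons. The build of these positions is not given reliably: the submitters' processing notes name hg38, a human build, for mouse gene identifiers. They do not match GRCm38.p6, the build of the promoters above, and cannot be set beside those. For instance, the promoter of *Pcolce2*, on the plus strand, starts at 95637378, past the gene's end at 95580149.

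*Lox*, the founding lysyl oxidase, was the most abundant of the 8 genes in all 3 libraries. It had 129 FPKM in WT (interval 127 to 131), 39.4 in Dspp+/- (38.2 to 40.5) and 83.6 in Dspp-/- (81.8 to 85.3). Dspp+/- was thus the lowest and Dspp-/- stood between it and WT. Relative to WT this was a fold of 0.305 (0.295 to 0.316) for Dspp+/- and 0.648 (0.631 to 0.666) in Dspp-/-.

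*Loxl1*, best known for crosslinking elastin, had 47.6 FPKM in WT, with 24.5 in Dspp+/- and 29.9 in Dspp-/-. It kept the largest part of its WT level in Dspp+/- among the lysyl oxidases, with a fold of 0.515 (0.487 to 0.546), and its fold in Dspp-/- was 0.628 (0.594 to 0.663). *Loxl2*, which crosslinks collagen IV and other collagens, had 39.9, 13.6 and 25.1 FPKM in the same order. Relative to WT it stood at 0.340 (0.321 to 0.359) in Dspp+/- and at 0.629 (0.5999 to 0.659) in Dspp-/-. In Dspp-/-, the fold intervals of *Lox*, *Loxl1* and *Loxl2* overlapped, while in Dspp+/- they all stood apart from each other.

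*Loxl3*, whose loss in mice disturbs the palate and spine, had 22.9 FPKM in WT against 9.48 in Dspp+/- and 10.6 in Dspp-/-. Against WT, Dspp+/- had a fold of 0.414 (0.384 to 0.446) and Dspp-/- one of 0.463 (0.430 to 0.498), and by point value its mutant libraries were the closest of any of the 8 genes. *Loxl4*, another lysyl oxidase with scavenger receptor domains, had 32.5 FPKM in the WT library, 7.58 in that of Dspp+/- and 12.9 in that of Dspp-/-. It was the gene furthest below WT in both mutant libraries, with a fold of 0.233 (0.215 to 0.253) in Dspp+/- and 0.396 (0.370 to 0.424) in Dspp-/-. Neither interval reached that of the next gene, *Lox* in Dspp+/- and *Loxl3* in Dspp-/-.

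*Bmp1* had 45.7 FPKM in WT, with 14.2 in Dspp+/- and 22.3 in Dspp-/-. *Pcolce*, the enhancer of bone and tendon, had 105.5 FPKM in WT against 35.7 in Dspp+/- and 51.6 in Dspp-/-. The proteinase and this enhancer were lower to a similar degree, with folds in Dspp-/- of 0.487 (0.470 to 0.506) for *Bmp1* and 0.489 (0.471 to 0.507) for *Pcolce*. In Dspp+/- the folds were 0.310 (0.298 to 0.324) and 0.338 (0.324 to 0.352), and their intervals just missed each other. *Pcolce* was 2.31 times *Bmp1* in WT (2.24 to 2.38), 2.51 times in Dspp+/- (2.39 to 2.64) and 2.32 times in Dspp-/- (2.22 to 2.42).

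*Pcolce2*, the second enhancer, was the lowest of the 8 genes, with 6.04 FPKM in the WT library, 3.24 in that of Dspp+/- and 4.19 in that of Dspp-/-. It was also the gene with the fewest fragments, 565 in WT, with 354 in Dspp+/- and 431 in Dspp-/-, against up to 12474 for *Lox*. Dspp+/- kept 0.537 (0.469 to 0.614) of the WT level and Dspp-/- kept 0.694 (0.611 to 0.788), so it lost less of its level than *Pcolce* in both. The ratio of *Pcolce* to *Pcolce2* was 17.5 in WT (16.1 to 19.1), 11.0 in Dspp+/- (9.86 to 12.3) and 12.3 in Dspp-/- (11.2 to 13.6).

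**Figure D1:**
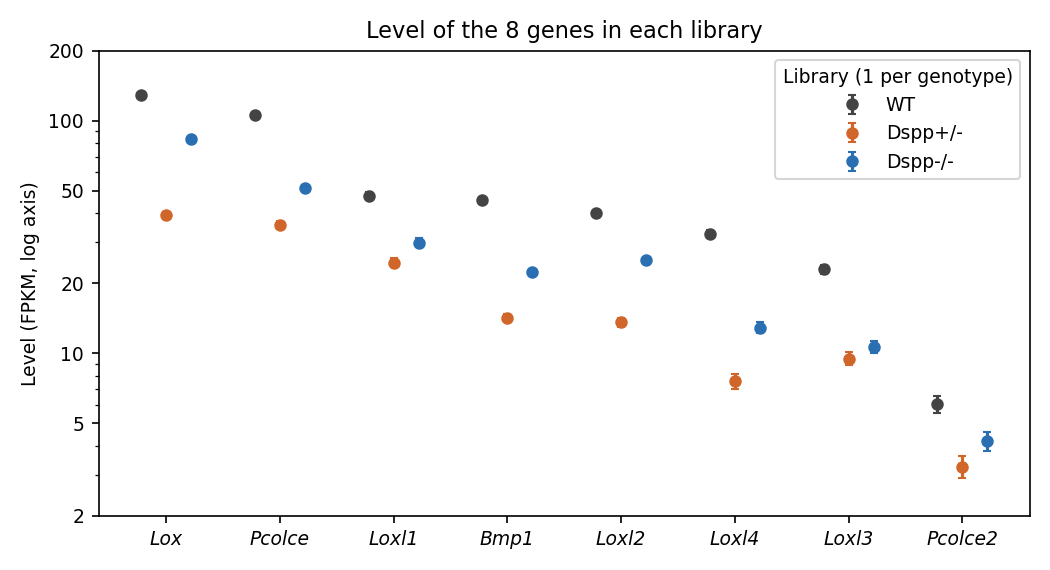
Level of each gene in FPKM on a log axis, 1 point per library, with 95% Poisson intervals of the fragments. In each of the 8 genes WT is highest, Dspp-/- second and Dspp+/- lowest, from 129, 83.6 and 39.4 FPKM for *Lox* to 6.04, 4.19 and 3.24 for *Pcolce2*.

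The order of the levels changed little between libraries. In WT it ran from *Lox* through *Pcolce*, *Loxl1*, *Bmp1*, *Loxl2*, *Loxl4* and *Loxl3* to *Pcolce2*, and *Loxl1* and *Bmp1* were the only neighbours whose intervals overlapped. In Dspp+/-, *Loxl3* stood above *Loxl4*, and the intervals of *Bmp1* and *Loxl2* overlapped. In Dspp-/-, *Loxl2* stood above *Bmp1*, and no neighbours overlapped. Among all genes compared, *Lox* was at percentile 98.3 of the levels in WT against 93.3 in Dspp+/- and 97.4 in Dspp-/-. *Loxl4* went from percentile 91.4 in WT to 59.3 for Dspp+/-, the largest shift of the 8 genes in that library, and was at 76.2 for Dspp-/-. In Dspp-/- the largest shift was that of *Loxl3*, from 87.2 to 71.2.

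For the comparison of each mutant library with WT, the log2 ratio of FPKM + 1 was used, a scale on which changes of weakly expressed genes come out smaller, and a gene was counted at a fold of 2 or more on this scale. In Dspp+/-, 6 of the 8 genes were at least 2-fold lower and none was at least 2-fold higher, while 2.86% of all genes compared were at least 2-fold lower and 4.88% at least 2-fold higher. The 6 genes and their log2 ratios were *Loxl4* (-1.97), *Lox* (-1.69), *Bmp1* (-1.62), *Pcolce* (-1.54), *Loxl2* (-1.49) and *Loxl3* (-1.19). *Loxl1* (-0.93) and *Pcolce2* (-0.73) were lower by less. The median log2 ratio of the 8 genes was -1.51, and that of all genes compared was 0.058. Of all genes compared, 0.207% had a lower ratio than *Loxl4* and 6.003% a lower ratio than *Pcolce2*.

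In Dspp-/-, 4 of the 8 genes were at least 2-fold lower, against 1.37% of all genes compared, and none was at least 2-fold higher, against 4.05%. They were *Loxl4* with a log2 ratio of -1.27, *Loxl3* with -1.04, *Pcolce* with -1.02 and *Bmp1* with -1.01. The last 3 lay just past the threshold, and with the values rescaled without mitochondrially encoded genes only *Loxl4* passed it. *Loxl1* (-0.65), *Loxl2* (-0.65), *Lox* (-0.62) and *Pcolce2* (-0.44) did not reach it. The median was -0.83 for the 8 genes and 0.0070 for all genes compared. Both comparisons use the same WT library.

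**Figure D2:**
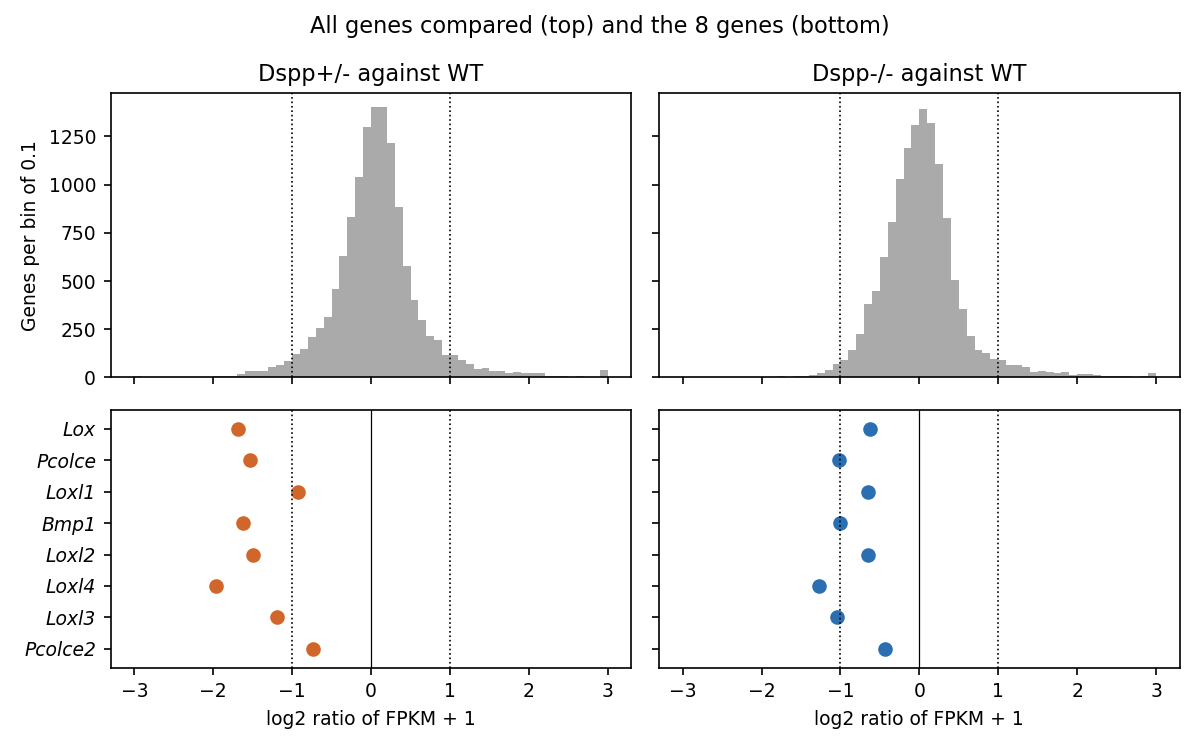
Top, number of genes per bin of 0.1 in the log2 ratio of FPKM + 1 for the 13026 genes compared (values past 3 in either direction are in the end bins). Bottom, the same ratio for the 8 genes, with dotted lines at 2-fold. All 8 lie left of 0, with 6 past the line in Dspp+/- and 4 in Dspp-/-.

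The comparison of Dspp-/- with Dspp+/- does not involve the WT library. All 8 genes were higher in Dspp-/-, by a median log2 ratio of 0.57, where all genes compared had a median of -0.037. *Lox* was the 1 gene at least 2-fold higher, with a fold of 2.12 (2.05 to 2.20), and 0.852% of all genes compared were. None was at least 2-fold lower, against 0.798% of all genes. The folds of the other genes were 1.85 (1.74 to 1.96) for *Loxl2*, 1.70 (1.55 to 1.86) for *Loxl4*, 1.57 (1.498 to 1.64) for *Bmp1* and 1.45 (1.38 to 1.51) for *Pcolce*. *Pcolce2* (1.29), *Loxl1* (1.22) and *Loxl3* (1.12, interval 1.03 to 1.22) differed least. The order of WT above Dspp-/- above Dspp+/- was thus seen in 8 of 8 genes, and 17.5% of all genes compared had it. Being lower than WT in both mutant libraries, which this order implies, was seen in 34.7% of all genes compared.

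Because the lysyl oxidases were lowered by different amounts, their mixture differed between libraries. This measure does not depend on how the libraries are scaled. The summed level of the 5 genes was 272 FPKM in the WT library, 94.5 in that of Dspp+/- and 162 in that of Dspp-/-. *Lox* made up 47.4% of it in WT, with 41.7% in Dspp+/- and 51.6% in Dspp-/-, with counting errors (SE) of 0.32, 0.50 and 0.40 percentage points. The share of *Loxl1* was 17.5% in WT against 25.9% in Dspp+/- and 18.4% in Dspp-/-, so it was high in Dspp+/- and the other libraries were near each other. The share of *Loxl4* was 11.96% in the WT library, 8.02% in that of Dspp+/- and 7.95% in that of Dspp-/-, low in both mutant libraries. *Loxl3* held 8.43%, 10.03% and 6.55%, and *Loxl2* 14.7%, 14.4% and 15.5%, in the order WT, Dspp+/-, Dspp-/-. *Lox* was 2.71 times *Loxl1* in WT (2.61 to 2.82), 1.61 times in Dspp+/- (1.52 to 1.69) and 2.80 times in Dspp-/- (2.67 to 2.93).

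**Figure D3:**
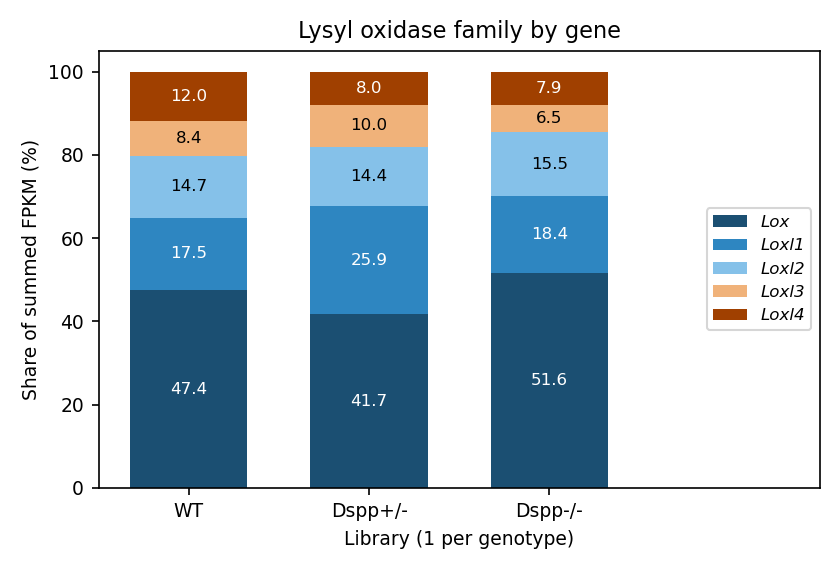
Share of each lysyl oxidase gene in the summed FPKM of the 5 genes, in percent, 1 bar per library. *Loxl1* takes 25.9% in Dspp+/- against 17.5% in WT, and *Loxl4* takes 11.96% in WT against 8.02% and 7.95% in the mutant libraries.

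The main substrate of these enzymes in bone is type I collagen, and its genes were lower as well. *Col1a1* had 6675 FPKM in WT, with 1719 in Dspp+/- and 3610 in Dspp-/-. The level of each enzyme gene was therefore also given per 1000 FPKM of *Col1a1* in the same library, which again does not depend on scaling. Per *Col1a1*, 7 of the 8 genes exceeded their WT value in Dspp+/- and *Loxl4* was lower. As *Col1a1* was among the genes furthest below WT, 99.4% of all genes compared were higher per *Col1a1* in Dspp+/-, and 95.5% in Dspp-/-. *Col1a1* itself had folds of 0.257 in Dspp+/- and 0.541 in Dspp-/-. A gene that kept its WT level would thus lie above all 8 genes on this measure.

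*Lox* had 19.3 FPKM per 1000 FPKM of *Col1a1* in WT against 22.9 in Dspp+/- and 23.2 in Dspp-/-. These are folds against WT of 1.19 (1.15 to 1.23) and 1.198 (1.17 to 1.23), so *Lox* followed *Col1a1* nearly alike in both mutant libraries. *Loxl1* had 7.13, 14.3 and 8.28 per 1000, a fold of 2.001 (1.89 to 2.12) in Dspp+/- and 1.16 (1.099 to 1.23) in Dspp-/-. *Pcolce2* was close to *Loxl1*, with folds of 2.09 (1.83 to 2.38) and 1.283 (1.13 to 1.45). *Loxl2* had folds of 1.32 (1.25 to 1.39) and 1.16 (1.11 to 1.22). *Loxl4* had 4.87 per 1000 in the WT library, 4.41 in that of Dspp+/- and 3.57 in that of Dspp-/-, and was lower in both.

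In Dspp-/-, 4 of the 8 genes were lower per *Col1a1* than in WT. *Pcolce* had 15.8 per 1000 in WT, with 20.8 in Dspp+/- and 14.3 in Dspp-/-. *Bmp1* had 6.85, 8.26 and 6.17, and *Loxl3* had 3.43, 5.51 and 2.94. These 3 genes were above WT in Dspp+/- and below it in Dspp-/-, and *Loxl4* was the fourth.

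**Figure D4:**
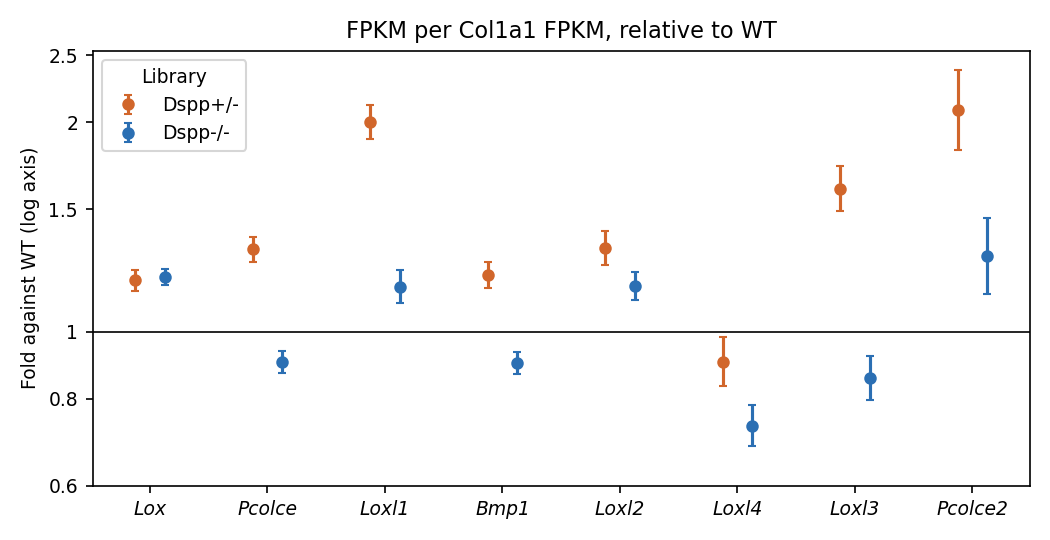
FPKM of each gene per *Col1a1* FPKM, as a fold against WT on a log axis, with 95% intervals of the fragments. *Loxl1* and *Pcolce2* are near 2 in Dspp+/-, *Lox* is at 1.19 and 1.198, and *Loxl4* is below 1 in both libraries.

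Other genes of collagen assembly were described by lists written by hand. In the list of fibrillar collagen and elastin substrates, 8 of 9 genes were at least 2-fold lower in Dspp+/- and 2 in Dspp-/-. Its median log2 ratio was -1.88 and -0.89, below that of the 8 enzyme genes in both libraries (-1.51 and -0.83). *Col2a1*, the collagen of cartilage, had 761 FPKM in WT against 94.2 in Dspp+/- and 308 in Dspp-/-, and *Col11a2*, a minor cartilage collagen, had 146, 32.9 and 49.3. *Col1a2*, the other chain of type I collagen, had 2780, 700 and 1496, and *Col3a1*, the collagen of soft connective tissue, had 576, 185 and 372. *Eln*, the elastin gene, was the 1 gene of this list that did not reach 2-fold in either library, with 4.54, 2.61 and 2.82 FPKM.

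The 18 enzymes and chaperones that fold and hydroxylate procollagen inside the cell were all lower in both mutant libraries, 8 of them by at least 2-fold in Dspp+/- and 5 in Dspp-/-. Their medians were -0.90 and -0.66. *Fkbp10*, a chaperone needed for lysine hydroxylation of the collagen ends, had 72.8 FPKM in the WT library, 20.9 in that of Dspp+/- and 35.6 in that of Dspp-/-. *Serpinh1*, the collagen chaperone HSP47, had 428, 160 and 196, and *P3h1*, a prolyl 3-hydroxylase, had 32.9, 11.1 and 15.4. *Plod2*, which hydroxylates the telopeptide lysines that lysyl oxidases then oxidize, had 66.1, 27.4 and 43.8. *Colgalt1*, a collagen galactosyltransferase, was the least lowered of them in Dspp-/-, with 25.6, 20.9 and 22.7 FPKM.

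Of 7 other procollagen proteinases, 3 averaged 1 FPKM or more. *Adamts2*, the main N-proteinase, had 36.5 FPKM in WT, with 14.7 in Dspp+/- and 22.3 in Dspp-/-, and was the 1 gene of the list at least 2-fold lower in Dspp+/-. *Adamts14* (4.40, 1.71 and 2.46) and *Adamts3* (1.87, 0.959 and 1.27) were also below WT. *Tll1* and *Tll2*, the genes most related to *Bmp1*, were between 0.0537 and 0.475 FPKM.

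Genes for proteins that hold these enzymes in the matrix went different ways. *Postn*, whose product binds BMP1, had 431 FPKM in WT against 145 in Dspp+/- and 351 in Dspp-/-, and *Efemp2*, whose product fibulin-4 binds LOX, had 18.9, 7.92 and 11.5. Both were at least 2-fold lower in Dspp+/- and not in Dspp-/-. *Fbln5*, whose product fibulin-5 binds LOXL1, had 10.4, 11.4 and 13.9 FPKM, above WT in both. *Fn1* and *Fmod*, also of this list, were lower by less than 2-fold in both. Among other substrates of BMP1, *Dmp1*, an osteocyte matrix gene, had 190.5, 70.4 and 79.5 FPKM and was at least 2-fold lower in both. *Bgn*, *Chrd* and *Ltbp1* were lower by less than 2-fold in both. Only *Ogn*, a small proteoglycan gene, was above WT in both, with 73.4, 79.7 and 110.3. None of the 3 genes of copper supply, *Atp7a*, *Slc31a1* and *Atox1*, reached 2-fold, with medians of -0.48 and -0.18.

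**Figure D5:**
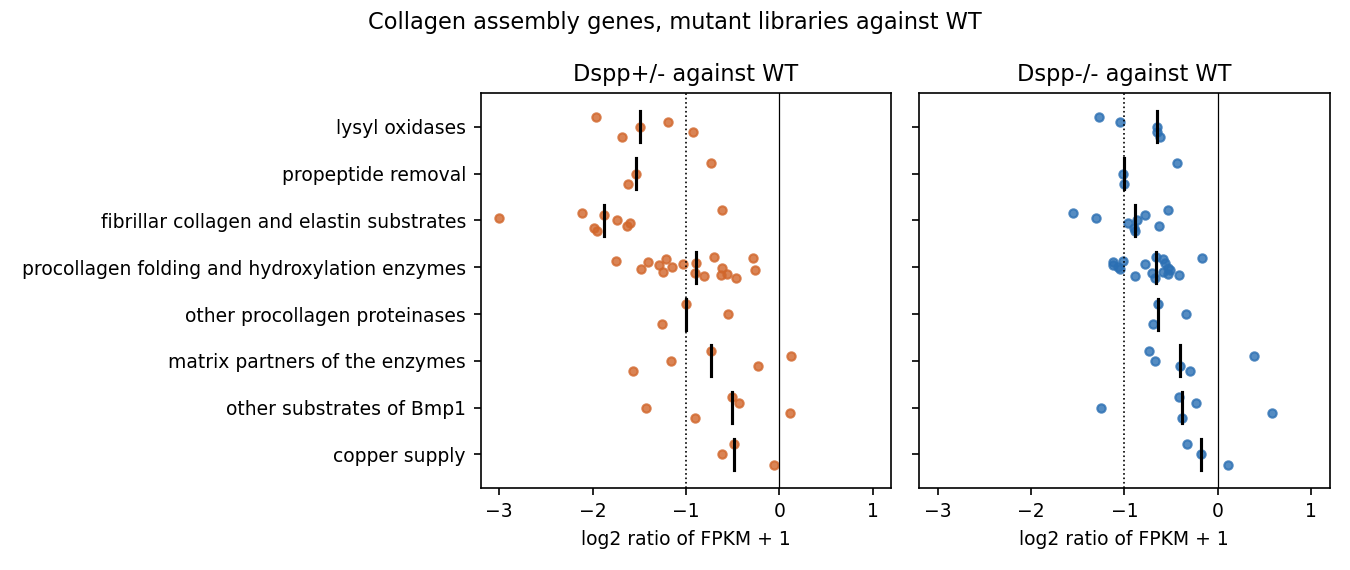
Log2 ratio of FPKM + 1 against WT for each gene of the lists that averaged 1 FPKM or more, 1 dot per gene, with the list median as a bar and a dotted line at 2-fold lower. The lysyl oxidases and the propeptide genes have medians of -1.49 and -1.54 in Dspp+/- and -0.65 and -1.01 in Dspp-/-.

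In RNA of a whole tissue, fewer cells of a type and less RNA per cell cannot be told apart. Summed over each list, markers of osteoblasts, of chondrocytes, of tendon and fibroblasts, and of osteoclasts were lower than WT in both mutant libraries. The 8 osteoblast markers summed to 4022 FPKM in the WT library, 1170 in that of Dspp+/- and 2081 in that of Dspp-/-, with 7 of 8 at least 2-fold lower in Dspp+/- and 2 in Dspp-/-. The 8 chondrocyte markers summed to 198, 46.5 and 105, with 5 of the 6 that averaged 1 FPKM or more at least 2-fold lower in Dspp+/- and 3 in Dspp-/-. Folds of these 6 in Dspp+/- ran from 0.0199 for *Cnmd* (6 fragments) and 0.0297 for *Col9a1* (53 fragments) to 0.492 for *Sox9*. *Matn1*, a defining gene of this list, had 2 fragments in WT, with 0 in Dspp+/- and 3 in Dspp-/-. The 8 tendon and fibroblast markers summed to 1096, 677 and 983, with 1 of 8 at least 2-fold lower in Dspp+/- and none in Dspp-/-. The 7 osteoclast markers summed to 2239, 798 and 1305, with 5 of 7 at least 2-fold lower in Dspp+/- and 1 in Dspp-/-. The most abundant of each list in WT were *Ibsp*, *Acan*, *Lum* and *Ctsk*. The part of these cells in the levels of the enzymes was not tested.

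Markers of marrow cells moved the other way. The 6 erythroid, 7 neutrophil and 4 B cell markers were all at least 2-fold higher in both mutant libraries, and the erythroid markers summed to 830 FPKM in WT against 3499 in Dspp+/- and 3340 in Dspp-/-. The 6 skeletal muscle markers summed to 9515, 12897 and 10812, with *Acta1* as the most abundant. *Myh4*, a fast myosin gene, had 124, 18.2 and 111 FPKM and was at least 2-fold lower in Dspp+/-, and no marker of this list was at least 2-fold higher. None of the 5 endothelial, 5 macrophage or 3 smooth muscle markers compared reached 2-fold. The 4 adipocyte markers summed to 30.9, 15.8 and 80.1, and of the 3 compared 1 was at least 2-fold lower in Dspp+/- and all were at least 2-fold higher in Dspp-/-. Mitochondrially encoded genes held 25.02%, 36.9% and 37.3% of the summed FPKM, and depth was between 20241577 and 23613622 fragments. *Xist*, expressed in cells of female mice, had 2 fragments in the WT library, 12084 in that of Dspp+/- and 10563 in that of Dspp-/-, so the sex of the pooled animals and the genotype cannot be told apart. *Dspp* was not analysed here, so the labels were not checked against it. The part of these differences in the levels of the enzymes was not tested.

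Among 4039 genes that averaged 10 FPKM or more, those nearest to each gene in the 2 log2 ratios to WT were found by Euclidean distance, over 3 libraries. The nearest to *Lox* were *Serpinf1*, *Col3a1* and *Panx3*, at distances of 0.023, 0.057 and 0.072, and 6 genes lay within 0.1. *Loxl4* had the fewest such neighbours, *Ibsp* and *Rbp4*, at 0.046 and 0.063, and *Pcolce2* the most, with 39 within 0.1. *Bmp1* was nearest to *Clec3a*, *Col5a1* and *Susd5*, and *Pcolce* to *Clec3a*, *Alpl* and *Tmem119*. *Loxl2* was nearest to *Olfml2b* and *Fkbp7*, *Loxl3* to *Mrc2*, *P3h3* and *Itm2c*, and *Loxl1* to *Mxd4*, *Lhfp* and *Vstm4*.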

How the data were processed

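RNA of mandibular condyles was sequenced in pairs of 150 bases after poly(A) selection. The authors deposited 1 table with 1 normalised value per gene and genotype, whose unit the table does not name and which was taken as FPKM from the values. Each value times merged exon length (GENCODE M21) gave whole fragments, within 0.05 fragments plus rounding, for 98.9% of genes under 100 fragments in each library. The recovered fragments gave the depth and all intervals. The submitters' processing notes name FastQC 0.11.5, HISAT2 2.1.0, StringTie 1.3.3b, DESeq 1.28.0 and the build hg38, with no role; annotation and filters are not given in the sources used here.

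Groups came from the genotype labels, with 1 library each, so the Kruskal–Wallis test of the study could not be used and no p-value was computed. Genes averaging 1 FPKM or more were compared as log2 ratios of FPKM + 1 at a threshold of 2-fold. Under the rule for named genes, the 8 genes were named, genes of the pathway lists past the threshold could be (not all are), and so were *Col1a1*, *Col1a2* and *Col3a1*, the most abundant marker of a list, the nearest neighbours (1 is not reported here), and further list genes chosen after their values were seen. The members and lists were chosen with earlier results of these data known. The scripts were tested on simulated data. FPKM does not adjust for the composition of a library. Scripts used pandas 2.3.3, numpy 2.4.6 and scipy 1.17.1 under Python 3.11.15, with Biopython 1.88 for alignments and matplotlib 3.10.9 for figures.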

Additional observations from a re-analysis of the deposited data

Results flagged for a closer look

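The level of 3 genes relative to *Col1a1* moved in opposite directions in the 2 mutant libraries, each by more than counting error. The difference was not tested, since each genotype has 1 library. A ratio to *Col1a1* above that of WT was the rule, as *Col1a1* itself was far lower in both mutants. With Dspp+/- it was found for 99.4% of the 13026 genes compared, and with Dspp-/- for 95.5%. The rise of the 3 genes was thus shared by nearly all genes, while their fall was not. The share of all genes that rose with Dspp+/- and fell with Dspp-/- was not computed. *Loxl3* per *Col1a1* FPKM was 1.61 times WT in Dspp+/- and 0.856 times WT in Dspp-/-. *Bmp1* was at 1.21 and 0.901 times WT, and *Pcolce* at 1.31 and 0.904 times WT, in the same order. The directions also held against the sum of *Col1a1*, *Col1a2* and *Col3a1*. This outcome was largely fixed, as *Col1a1* holds most of that sum. *Col1a2* also had nearly its folds, 0.252 in Dspp+/- and 0.538 in Dspp-/-. Collagens outside the sum had other folds, such as 0.326 and 0.511 for *Col5a1* and 0.124 and 0.405 for *Col2a1*. Ratios to these were not computed.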

How the results depend on the processing

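All compared genes of the 8 (7 at a minimum mean of 5 FPKM) were lower than WT in both mutant libraries, and higher in Dspp-/- than in Dspp+/-, under each of the 10 alternatives. Another pseudocount, filter or threshold cannot change a direction, so only the alternatives that rescale the libraries could have done so. The median log2 ratio of these genes ranged from -1.73 to -1.34 in Dspp+/- against WT and from -1.01 to -0.72 in Dspp-/- against WT. The number of genes past the threshold depended on the settings. In Dspp+/-, the 6 lower genes became 5 with a pseudocount of 5 (against 1.2% of all genes) and 8 at 1.5-fold (against 8.95%). They became 7 with median-ratio scaling (against 3.41%), with housekeeping scaling (4.69%), and when rescaled without hemoglobin, immunoglobulin and skeletal muscle genes (4.42%). With a pseudocount of 5, 1 gene was lower in Dspp-/- than in WT in place of 4, against 0.345% of all genes. At that setting 0 were higher in Dspp-/- than in Dspp+/- in place of 1, against 0.276% of all genes. Rescaled without mitochondrially encoded genes, 1 gene was lower in Dspp-/-, against 1.08% of all genes. At 1.5-fold, 7 genes were lower in Dspp-/-, against 8.21% of all genes, and 4 were higher in Dspp-/- than in Dspp+/-, against 3.39%. Of all genes, 0.184% were lower at 4-fold in Dspp+/- and 0.0461% in Dspp-/-. Of the 8, there were 0 in each of the 3 comparisons at 4-fold, where 6 had been lower in Dspp+/-. These follow from the construction of the alternatives. Against the sum of 3 collagens, most of which is *Col1a1*, the number of genes higher than WT stayed at 7 and 4.

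Over all genes, scaling on 8 housekeeping genes moved the median log2 ratio in Dspp+/- from 0.058 to -0.13 and the share of higher among changed genes from 63.0% to 41.7%. Rescaling without hemoglobin, immunoglobulin and skeletal muscle genes gave a median of -0.10 and a share of 44.5%, with 566 lower genes in Dspp+/- and 315 in Dspp-/-. In Dspp-/- these shares were 58.6% and 56.4%, against 74.6%. Counts over all genes also moved. The 373 lower and 636 higher genes of Dspp+/- became 605 and 971 with a pseudocount of 0.1, 156 and 185 with 5, 272 and 281 at a mean of 5 FPKM, 599 and 428 with housekeeping scaling, 1166 and 1501 at 1.5-fold and 24 and 124 at 4-fold. The 179 lower and 527 higher genes of Dspp-/- became 363 and 836, 45 and 136, 110 and 228, 292 and 413, 1070 and 1152, and 6 and 103 in the same order. No library could be left out. No paired analysis was possible because each genotype has 1 library.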
